A study of Mus musculus with 6 samples.

Results

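The genes described here are 10 regulators and products of the myeloid programme of blood cells: the granule genes Mpo, Elane, Ctsg and Prtn3, the C/EBP transcription factor genes Cebpa, Cebpb and Cebpe, the receptor genes Csf1r and Csf3r, and the lysozyme gene Lyz2. They were followed through every probe set that the platform annotation lists under exactly 1 gene symbol equal to a member, which gave 12 of the 45037 probe sets tested, for 9 of 18193 genes. Cebpe had no such probe set and is not analysed here. Cebpb had a pair of probe sets, Csf1r had 3 and each other gene had 1. Total RNA came from LSK cells, the Sca-1 and Kit positive fraction of lineage-negative marrow that contains stem cells and multipotent progenitors, sorted from mice aged 6 months whose strain is labelled CD57BL/6. There were 3 WT samples and 3 Tet1 KO samples, labelled by genotype alone, with no treatment in either group and 1 Affymetrix array per sample. Tet1 encodes a dioxygenase that oxidises methylated cytosine in DNA, and the series title treats it as a tumour suppressor of the blood system. The sources used here do not say how the allele was made, where the deletion lies relative to the probe sets or whether each sample is a separate mouse. The p-values therefore cover the spread among these samples, which may be technical. At the Tet1 probe set with the largest difference, the WT arrays read 6.71, 6.26 and 6.33 and the Tet1 KO arrays 5.27, 4.95 and 4.04. All 4 Tet1 probe sets were lower in the Tet1 KO samples with no overlap, by differences from -1.68 to -0.93, at adjusted limma p-values of 0.686.

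Myeloid differentiation from multipotent progenitors depends on the transcription factors PU.1, encoded by Spi1, and C/EBP alpha, which act with RUNX1 and MYB on the promoters of myeloid genes. Primed progenitors switch on messenger RNA of the primary (azurophil) granules early: myeloperoxidase, neutrophil elastase, cathepsin G and proteinase 3. C/EBP epsilon and the secondary granule genes come later, and the receptors for the macrophage and granulocyte colony-stimulating factors, encoded by Csf1r and Csf3r, carry the cytokine signals of the monocyte and neutrophil branches.

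No member differed between genotypes past correction. In limma with Benjamini-Hochberg adjustment over all 45037 probe sets, 0 of the 12 member probe sets passed at 0.05, where the background was 0.0% of all probe sets, and adjusted p-values ran from 0.686 to 0.954. At an unadjusted p under 0.05 the count was 0 of 12, where 6.81% of all probe sets passed. The differences, Tet1 KO minus WT on the log2 scale, ran from -0.23 to 0.96, with 11 probe sets higher and 1 lower in Tet1 KO. Their median was 0.37, beside 0.06 for all probe sets, of which 57.1% were higher. The groups did not overlap at 2 of the 12, both higher in Tet1 KO, where 16.2% of all probe sets lay apart and 9.96% did so in that direction.

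**Figure D1:**
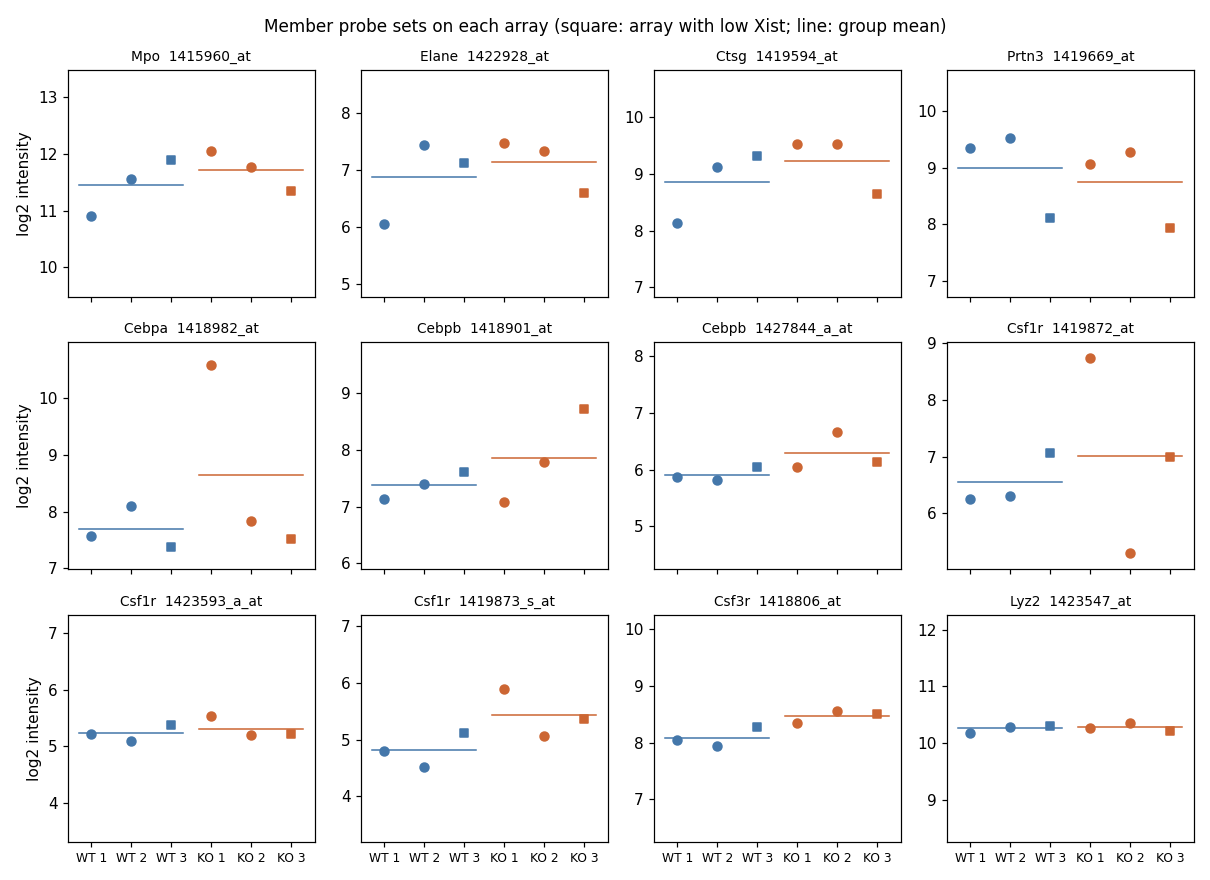
Each panel plots 1 probe set, with the array on the horizontal axis and its log2 intensity on the vertical axis, which spans 4 log2 units in every panel. Blue marks WT and orange Tet1 KO, lines are group means, and squares mark the arrays with low Xist. Cebpa and the brightest Csf1r probe set stand apart on Tet1 KO replicate 1, while Lyz2 is nearly level.

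Facts of the arrays bear on how these values are read. Tet1 KO replicate 2 stood apart: its highest correlation with another array over all probe sets was 0.943, against highest values from 0.976 to 0.984 for the other 5. Xist, the RNA of the inactive X chromosome, read from 11.78 to 12.17 on 4 arrays, but 4.58 on WT replicate 3 and 3.82 on Tet1 KO replicate 3. The Y-linked gene Kdm5d showed the reverse, at 8.30 and 9.16 on those arrays and at most 3.65 on the rest. Differences also moved with brightness. With the probe sets in 5 level classes of equal size, the median difference was -0.12 in the brightest class, with 32.3% higher in Tet1 KO, and 0.15 in the dimmest, with 81.2% higher. The brightest class held 7 member probe sets, of which 6 were higher. The brightest bacterial control probe set averaged 4.335, and in each genotype the means of all 12 member probe sets lay above it. On single arrays the brightest control read 4.87 on Tet1 KO replicate 2 and from 4.21 to 4.37 on the other 5. The median deviation of Tet1 KO replicate 2 from the WT mean was 0.26 in the dimmest class and -0.22 in the brightest. Of the LSK and stem cell markers, 10 of 10 measured were above 4.335, among them Kit, which ran from 9.68 to 10.02 over the 6 arrays. Ly6a, which encodes Sca-1, is not analysed here.

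The granule genes differed more between arrays of 1 genotype than between genotypes. In RNA from a sorted population, fewer cells of a type and less RNA per cell cannot be told apart. Mpo encodes myeloperoxidase, a granule enzyme that makes hypochlorous acid. It read 10.91, 11.56 and 11.89 on WT replicates 1, 2 and 3, and 12.05, 11.77 and 11.34 on Tet1 KO replicates 1, 2 and 3. WT replicate 1 was the lowest array and Tet1 KO replicate 3 the next lowest, and the groups overlapped. The difference was 0.27 (SE 0.30, 95% interval -0.46 to 0.99), with a limma p of 0.406 and an adjusted p of 0.762.

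Elane encodes neutrophil elastase, a serine protease. Its WT arrays read 6.06, 7.45 and 7.12, and its Tet1 KO arrays 7.48, 7.33 and 6.59. WT replicate 1 and Tet1 KO replicate 3 were again the lowest. The difference was 0.26 (SE 0.41, interval -0.72 to 1.24). Ctsg encodes cathepsin G, another granule serine protease, and read 8.14, 9.12 and 9.31 in WT against 9.52, 9.53 and 8.65 in Tet1 KO. The same arrays were lowest, and the groups overlapped. Its difference was 0.37 (SE 0.38, interval -0.54 to 1.29). Over all 6 arrays Mpo spanned 2.20-fold, Elane 2.69-fold and Ctsg 2.61-fold, spans that include any genotype difference. Fold differences between group means were 1.21, 1.20 and 1.30. Within a genotype, the SD among arrays was 0.50 in WT and 0.36 in Tet1 KO for Mpo. It was 0.73 and 0.48 for Elane, and 0.63 and 0.50 for Ctsg. Each SD was larger than the gene's log2 difference between genotypes.

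Prtn3, which encodes proteinase 3 and is the protein-coding gene next to Elane in RefSeq, followed another order. It read 9.34, 9.52 and 8.11 on the WT arrays and 9.06, 9.27 and 7.93 on the Tet1 KO arrays. It was low on replicate 3 of each genotype, the arrays with low Xist, and at 9.06 or more on the 4 with high Xist. The genotype difference was -0.23 (SE 0.49, interval -1.40 to 0.94). With low Xist as a covariate, chosen after seeing the data, the value stayed at -0.23 and its standard error was 0.16, with an adjusted limma p of 0.735. The part of sex or of any other difference between these arrays was not tested.

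The stretches of 250 bases before the RefSeq start of these 4 genes are shown because Mpo, Elane and Ctsg were low on WT replicate 1 and Tet1 KO replicate 3, while Prtn3, beside Elane, was low on WT replicate 3 and Tet1 KO replicate 3. They are from the RefSeq promoter table of GRCm38.p6, at chr11:87793534-87793783 (plus strand) for Mpo, chr10:79886062-79886311 (plus) for Elane, chr14:56102575-56102824 (minus) for Ctsg and chr10:79879417-79879666 (plus) for Prtn3. Each is written 5′ to 3′ on the gene's strand. Capitals mark GAGGAA, the core letters of a PU.1 site, searched on both strands.
Mpo: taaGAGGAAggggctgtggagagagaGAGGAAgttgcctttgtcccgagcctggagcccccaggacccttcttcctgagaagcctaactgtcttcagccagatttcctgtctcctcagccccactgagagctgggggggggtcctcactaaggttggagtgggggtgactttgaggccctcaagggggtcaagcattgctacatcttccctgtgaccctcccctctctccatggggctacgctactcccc
Elane: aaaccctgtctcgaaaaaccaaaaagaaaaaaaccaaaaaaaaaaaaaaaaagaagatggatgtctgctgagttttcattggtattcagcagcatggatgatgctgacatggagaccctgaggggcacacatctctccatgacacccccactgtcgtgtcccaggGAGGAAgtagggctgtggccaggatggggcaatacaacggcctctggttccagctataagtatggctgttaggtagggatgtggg
Ctsg: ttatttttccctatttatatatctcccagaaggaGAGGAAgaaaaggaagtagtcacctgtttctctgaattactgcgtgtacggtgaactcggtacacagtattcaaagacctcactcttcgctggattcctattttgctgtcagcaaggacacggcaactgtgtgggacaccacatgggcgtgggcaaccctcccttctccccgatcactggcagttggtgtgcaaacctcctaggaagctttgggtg
Prtn3: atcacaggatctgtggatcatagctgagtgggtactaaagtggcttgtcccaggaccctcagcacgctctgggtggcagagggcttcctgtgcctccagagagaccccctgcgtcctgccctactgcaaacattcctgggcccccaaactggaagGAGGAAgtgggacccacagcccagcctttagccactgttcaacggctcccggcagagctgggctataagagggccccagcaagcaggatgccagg

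All 4 stretches held GAGGAA, which is present in 23.3% of 32851 promoter stretches of the same length. Its first base lay 85 bases before the start in Elane and 95 in Prtn3, 216 in Ctsg, and 247 and 224 in Mpo. The RUNX core TGTGG, on either strand, was also in all 4 and in 49.3% of all stretches. The MYB letters AACNG were in all 4 and in 74.2%. The C/EBP letters TTNCNNAA were in 0 of the 4 and in 36.8% of all stretches. Of the 8 members with a promoter in the table, 5 held GAGGAA (the 4 granule genes and Csf3r) and 1, Lyz2, held TTNCNNAA. In these promoters no matches to different motifs shared bases except in Lyz2, where the C/EBP letters overlapped a MYB match. These are matches of letters, and Prtn3 held the same motifs as its 3 companions.

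**Figure D2:**
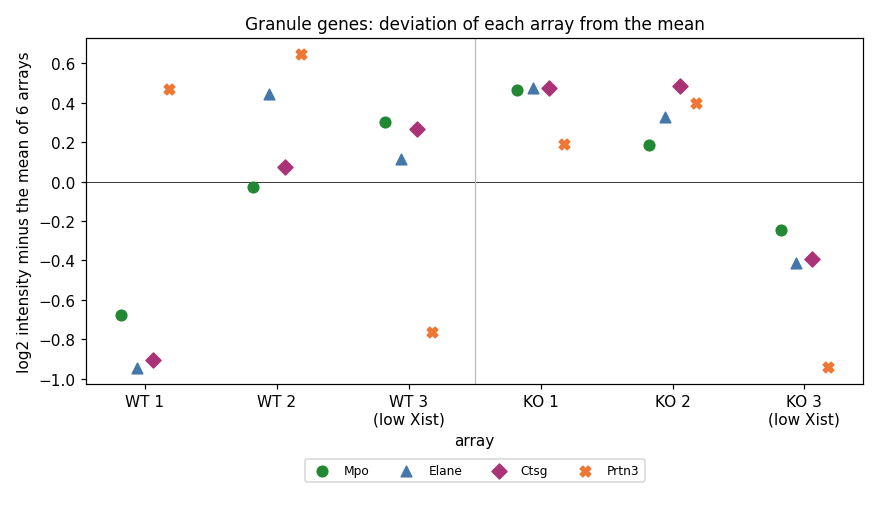
Deviation of each array (horizontal axis) from the gene's mean over 6 arrays, in log2 units (vertical axis), for Mpo, Elane, Ctsg and Prtn3. Mpo, Elane and Ctsg lie lowest on WT replicate 1 and next lowest on Tet1 KO replicate 3, and Prtn3 lies lowest on the low-Xist arrays, WT replicate 3 and Tet1 KO replicate 3.

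Over the 6 arrays Mpo and Ctsg gave Pearson's r = 0.96 (exact permutation p = 0.0111, adjusted over 6 pairs 0.0666) and Spearman's rho = 0.83 (exact permutation p = 0.0583, adjusted 0.272). Without WT replicate 1 and Tet1 KO replicate 1, the arrays farthest from the median of Mpo, r was 0.89. Mpo and Elane gave r = 0.89 (exact permutation p = 0.0361, adjusted 0.0722) and rho = 0.77 (exact permutation p = 0.103, adjusted 0.272), with r = 0.57 when the same arrays were left out. Elane and Ctsg gave r = 0.94 (exact permutation p = 0.0278, adjusted 0.0722) and rho = 0.71 (exact permutation p = 0.136, adjusted 0.272). Without WT replicate 1 and Tet1 KO replicate 3 that r was 0.06, so it rested on those arrays. The 3 pairs with Prtn3 had r from -0.12 to 0.19. Leaving out the arrays farthest from the median gave r = 0.15 for Mpo and Prtn3, -0.06 for Ctsg and Prtn3, and 0.85 for Elane and Prtn3, whose r with all arrays was 0.19. None of the 6 pairs passed adjustment at 0.05. No r was computed within a genotype or an Xist state, which hold at most 4 arrays.

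The arrays with high and low Xist gave opposite signs for the first 3 granule genes. On the 4 high-Xist arrays the genotype difference was 0.68 for Mpo, 0.65 for Elane and 0.89 for Ctsg. Between the 2 low-Xist arrays, 1 of each genotype, it was -0.54, -0.53 and -0.66. The limma test of the difference between these effects gave 1.22 (SE 0.53), 1.18 (SE 0.88) and 1.55 (SE 0.66), with unadjusted p-values of 0.0748, 0.241 and 0.0711 and an adjusted p of 0.993 for each. With 1 array of each genotype at low Xist, that effect has no replicates, and the test assumes that these arrays vary like the 4 high-Xist ones. The lowest of the high-Xist arrays for all 3 genes was WT replicate 1. Without WT replicate 1 the genotype differences were -0.0014 for Mpo, -0.15 for Elane and 0.01 for Ctsg.

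Marker genes of several cell types were read on the same arrays, and no type was singled out beforehand for comparison with Mpo. The summed linear intensity of 6 mast cell and basophil markers was 161, 185 and 376 on the WT arrays and 357, 397 and 201 on the Tet1 KO arrays. It was high on WT replicate 3 and Tet1 KO replicates 1 and 2, the arrays on which Mpo was highest. It was lowest on WT replicate 1, as Mpo was, but next lowest on WT replicate 2, where Mpo was above Tet1 KO replicate 3. The high sums came from different genes. Cpa3 read 7.27 on WT replicate 3 and 7.57 on Tet1 KO replicate 1, but 5.46 on Tet1 KO replicate 2. On that array Mcpt8 (6.92) and Hdc (7.21) were highest. Ms4a2 and Gzmb of that list averaged below the bacterial control level over the 6 arrays. The T and NK sum was also lowest on WT replicate 1, at 397, followed by 415 on Tet1 KO replicate 3. That sum was 780 on WT replicate 3 and 786 on Tet1 KO replicate 2, but 468 on Tet1 KO replicate 1. Of its markers, only Nkg7 averaged above the bacterial control level. Summed over 10 mature neutrophil markers, the range was 789 to 1950 in WT and 1160 to 1720 in Tet1 KO. The highest sum was on WT replicate 1, and the bright S100a8 and S100a9 make up most of it. Of the 10, 2 (S100a9 and Lcn2) were highest on that array and 5 (Ltf, Camp, Ngp, Mmp8 and Cd177) on Tet1 KO replicate 2. Mmp8, Cxcr2 and Cd177 averaged below the bacterial control level over the 6 arrays. Summed over 9 monocyte and macrophage markers, the range was 328 to 476 in WT and 462 to 724 in Tet1 KO. Fcgr1 and Adgre1 averaged below that level, though Fcgr1 read 4.78 and 4.56 on Tet1 KO replicates 1 and 2. Ccr2 read from 7.11 to 7.90 on WT replicate 2 and Tet1 KO replicates 2 and 3, and from 4.11 to 4.30 elsewhere. Of the 9 markers, 3 (Itgam, Cd68 and Adgre1) were highest on WT replicate 1. On Tet1 KO replicates 1, 2 and 3 the numbers highest were 2, 3 and 1. The excess of 3′ over 5′ signal for Gapdh, a measure that rises with loss of RNA integrity, ran from 1.22 to 1.90 log2 units. It was highest on Tet1 KO replicate 3. The same measure for actin ran from -0.33 to 0.09 and was highest on Tet1 KO replicate 1, with -0.10 on Tet1 KO replicate 3. The part of any of these in the granule gene values was not tested.

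Genes whose centred profile was nearest to the mean profile of the 4 granule genes were taken from 5487 genes with a mean of at least 7 and enough range. The profile includes Prtn3, which followed another order than the rest. How close the nearest of so many genes would lie over 6 arrays without any link was not tested. Rwdd2b was nearest, with a mean absolute difference of 0.109 log2 units over 6 arrays. Arsb, the lysosomal enzyme arylsulfatase B, followed at 0.118 and the inflammatory caspase gene Casp4 at 0.141. Fkbp9, Opa1 and Rhot1 lay at 0.142, 0.144 and 0.145. For comparison, the same measure was 0.153 for Elane, 0.198 for Ctsg, 0.213 for Mpo and 0.466 for Prtn3 against the profile they themselves make up.

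Cebpa, the C/EBP factor required for granulocyte-monocyte progenitors, had the largest genotype difference of the members, with a single Tet1 KO array far above the rest. The WT arrays read 7.58, 8.10 and 7.38, and the Tet1 KO arrays 10.59, 7.83 and 7.52. Tet1 KO replicate 1 lay 2.49 log2 units, or 5.62-fold, above the next array, while the other Tet1 KO arrays lay within the WT range. The difference was 0.96 (SE 0.79, interval -0.92 to 2.84), with a limma p of 0.264 and an adjusted p of 0.706. Without Tet1 KO replicate 1 it was -0.01. Only 1.06% of all probe sets had a larger residual SD. A gap of at least that size on Tet1 KO replicate 1 was found at 63 probe sets, or 0.14%. The number of probe sets on which an array stood at least 2 log2 units above all others was 92 for Tet1 KO replicate 1, 195 for Tet1 KO replicate 2 and from 15 to 52 for the other arrays.

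On the array where Cebpa was high, the granule genes showed no gap of that size. Tet1 KO replicate 1 was the highest array for Mpo by 0.16 and for Elane by 0.03, and it was not the highest for Ctsg or Prtn3. Summed B lineage markers were also highest on that array, at 2220, against 621 to 985 in WT, 1100 on Tet1 KO replicate 2 and 1780 on Tet1 KO replicate 3. Of the 8 measured, 3 (Vpreb1, Igll1 and Blnk) were highest there, and Vpreb1 and Igll1 make up most of the sum. Cd79a and Ebf1 were highest on Tet1 KO replicate 3, Pax5 on Tet1 KO replicate 2, Cd79b on WT replicate 3 and Cd22 on WT replicate 2. Blnk and Cd22 read on average below the bacterial control level. Summed erythroid markers were also highest there, at 1290, against 923 to 1040 in WT and 689 and 975 on Tet1 KO replicates 2 and 3. So were summed dendritic cell markers, at 589, against 434 to 503 in WT and 549 and 360 on Tet1 KO replicates 2 and 3. The sums of the other marker sets were highest on other arrays. What part any of these marker signals has in the Cebpa value was not tested.

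Cebpb, which encodes the C/EBP factor of stress-driven granulocyte production and macrophages, was measured by a pair of probe sets that did not single out the same array. At 1418901_at the WT arrays read 7.13, 7.40 and 7.60 and the Tet1 KO arrays 7.08, 7.79 and 8.71. Tet1 KO replicate 3 lay 0.92 above the next array, and Tet1 KO replicate 1 was the lowest of all. The difference was 0.48 (SE 0.40, interval -0.48 to 1.45), and 0.06 without Tet1 KO replicate 3. At 1427844_a_at the WT arrays read 5.87, 5.82 and 6.04 and the Tet1 KO arrays 6.05, 6.67 and 6.14. Every Tet1 KO array was above every WT array, with Tet1 KO replicate 2 highest. That difference was 0.38 (SE 0.21, interval -0.12 to 0.87), with an adjusted limma p of 0.686, and 0.18 without Tet1 KO replicate 2. Both probe sets had the same sign and were highest on different arrays.

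Csf1r encodes the receptor for macrophage colony-stimulating factor, and its 3 probe sets gave different pictures. At 1419872_at the WT arrays read 6.26, 6.31 and 7.07 and the Tet1 KO arrays 8.73, 5.30 and 6.99. Tet1 KO replicate 1 was highest by 1.66 and Tet1 KO replicate 2 lowest by 0.96, so that the Tet1 KO arrays enclosed all WT arrays. The difference was 0.46 (SE 0.81, interval -1.46 to 2.39), and -0.40 without Tet1 KO replicate 1.

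At 1419873_s_at the WT arrays read 4.79, 4.51 and 5.12 and the Tet1 KO arrays 5.89, 5.06 and 5.36. The groups overlapped because Tet1 KO replicate 2 lay below WT replicate 3. The probe set was dim, with a WT mean of 4.81 beside the bacterial control level of 4.335. On Tet1 KO replicate 2 the brightest bacterial control read 4.87. The difference was 0.63 (SE 0.27, interval -0.01 to 1.26), with a limma p of 0.0528 and an adjusted p of 0.686. At 1423593_a_at all 6 arrays lay between 5.10 and 5.54, and the difference was 0.09 (SE 0.17). Tet1 KO replicate 1 was the highest array at each of the 3 probe sets, as it was for Cebpa. Probes ending in _s_at or _a_at can detect several transcripts, and the sources used here do not say which Csf1r transcript each one measures.

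Csf3r, the receptor for granulocyte colony-stimulating factor, showed the smallest p of the members. The WT arrays read 8.04, 7.95 and 8.28 and the Tet1 KO arrays 8.34, 8.56 and 8.51. Every Tet1 KO array lay above every WT array, most narrowly between WT replicate 3 and Tet1 KO replicate 1. The difference was 0.38 (SE 0.16, interval -0.0027 to 0.76), or 1.30-fold, with a limma p of 0.0512 and an adjusted p of 0.686. It was 0.46 on the high-Xist arrays and 0.22 between the low-Xist arrays. Over leave-one-out fits it ran from 0.31 to 0.48. The adjusted p stayed between 0.487 and 0.901 in these fits.

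Lyz2, which encodes lysozyme M of macrophages and neutrophils, was the most even of the members. It read 10.18, 10.28 and 10.30 in WT and 10.27, 10.35 and 10.22 in Tet1 KO. All 6 arrays lay within 0.17 log2 units, and 98.2% of all probe sets had a larger residual SD. The difference was 0.02 (SE 0.14), and the interval of -0.30 to 0.35 leaves room for a change of modest size. Lyz1 is a near-identical neighbouring gene, and the files do not say how far the Lyz2 probe set also detects its transcript. The brightest Lyz1 probe set, with a WT mean of 10.83, differed by -0.18 (SE 0.18). The next, with a WT mean of 9.95, differed by -0.14 (SE 0.17). A dim Lyz1 probe set, with a WT mean of 5.03, differed by 0.07 (SE 0.15). How far the bright Lyz1 probe sets also detect the Lyz2 transcript was not tested.

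**Figure D3:**
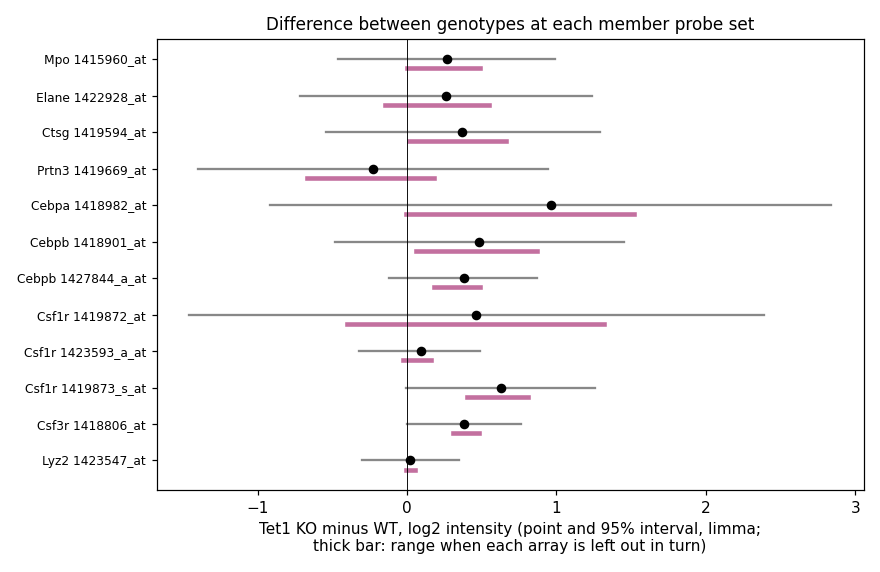
Tet1 KO minus WT in log2 intensity (horizontal axis) for each member probe set (vertical axis), with the 95% interval from limma as a grey line and the range of values when each array is left out in turn as a purple bar. All 12 intervals include 0, and the bars of Cebpa and of the brightest Csf1r probe set are the longest, from -0.01 to 1.52 and from -0.40 to 1.32.

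Other genes of the myeloid programme were counted from 5 lists, each gene at its brightest probe set. Over all 18193 genes, 6.73% had an unadjusted limma p under 0.05 and 0.0% an adjusted p under 0.05, and the median difference was 0.05. Of 16 further genes of primary granules and early granulocytes, 8 were higher and 8 lower in Tet1 KO, 1 had an unadjusted p under 0.05, 0 passed adjustment and the median was -0.0039. Gstm1, a glutathione transferase gene, read 9.59 ± 0.26 in WT and 9.12 ± 0.09 in Tet1 KO (SD, n = 3 each). Fcnb, the ficolin B gene, differed by 0.45 (SE 0.19), haptoglobin, Hp, by 0.86 (SE 0.54) and the protease inhibitor gene Serpinb1a by -0.39 (SE 0.27). Fcnb read below the bacterial control level in both groups.

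Of 19 secondary and tertiary granule genes, the later products, 9 were higher and 10 lower, with a median of -0.0046, 1 at an unadjusted p under 0.05 and 0 past adjustment. Cyba, a subunit of the phagocyte oxidase, read 7.42 ± 0.16 in WT and 6.95 ± 0.23 in Tet1 KO (SD, n = 3 each). Orm1, Olfm4 and the collagenase gene Mmp8 each differed by 0.39, with every Tet1 KO array above every WT array, as for 10.3% of all genes, and all 3 read below the bacterial control level. Only 11 of the 19 were above it in both groups.

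Among 24 further myeloid transcription factor genes, 13 were higher and 11 lower, with a median of 0.08, 2 at an unadjusted p under 0.05 and 0 past adjustment. Nfil3, a bZIP factor gene, differed by -1.09 (SE 0.36) and the AP-1 gene Junb by 0.59 (SE 0.22), with adjusted limma p-values of 0.686 each. Zeb2 differed by 0.43 (SE 0.24) and Irf8, a factor of the monocyte and dendritic branches, by 0.51 (SE 0.29). Spi1 itself read 7.85 ± 0.12 in WT and 7.72 ± 0.07 in Tet1 KO (SD, n = 3 each), a difference of -0.13 (SE 0.15).

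Among 25 ligands, receptors and signalling genes, 15 were higher and 10 lower, with a median of 0.16, 2 at an unadjusted p under 0.05 and 0 past adjustment. Leaving out Tet1 KO replicate 1 gave a median of -0.01, and leaving out Tet1 KO replicate 2 gave 0.04. The kinase gene Jak1 differed by -0.42 (SE 0.17). Another kinase gene, Fgr, differed by 0.92 (SE 0.35), from a WT mean of 3.72, below the bacterial control level, to 4.64. Csf2ra, the alpha chain of the GM-CSF receptor, differed by -1.03 (SE 0.47), with 4.37 on Tet1 KO replicate 2 against 5.78 or more elsewhere. Stat5b, a transducer of these receptors, differed by -0.88 (SE 0.45), with Tet1 KO replicate 2 at 6.09 and all other arrays at 7.60 or more.

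Of 18 monocyte and macrophage genes, 11 were higher and 7 lower, with a median of 0.15, 2 at an unadjusted p under 0.05 and 0 past adjustment. Leaving out Tet1 KO replicate 1 gave 0.26. Cx3cr1, the fractalkine receptor gene, read 5.31, 5.04 and 5.39 in WT and 6.67, 6.09 and 5.63 in Tet1 KO. Its highest array was Tet1 KO replicate 1 and the groups did not overlap. The difference was 0.88 (SE 0.28). F13a1, a coagulation factor gene of monocytes, differed by 0.79 (SE 0.27), and Mpeg1 by 0.52 (SE 0.23). Fcgr1 differed by 0.41 (SE 0.21), with a WT mean of 4.07 that lay below the bacterial control level.

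**Figure D4:**
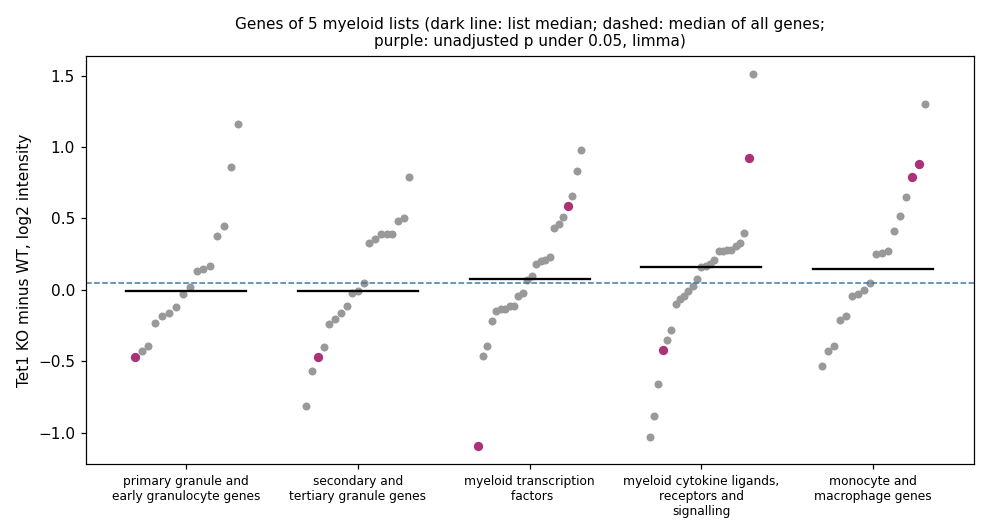
Each point is 1 gene of a myeloid list (horizontal axis, ordered by value within each list) at its Tet1 KO minus WT difference in log2 intensity (vertical axis). Dark lines are list medians, from -0.0046 to 0.16, the dashed line is the median of all genes, 0.05, and purple points had an unadjusted limma p under 0.05; none passed adjustment.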

How the data were processed

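The authors deposited log2 intensities for 45101 probe sets on each array. The scale was read from the values, 1.50 to 14.58; the sources used here do not say how they were corrected, normalized and summarized. The labels' protocols name whole-transcript labelling of cDNA from 125 ng of RNA. Array medians lay within 0.0694, and values were used as deposited. Groups came from titles. Leaving out 64 controls, 45037 probe sets were fitted in limma 3.58.1 (R 4.3.3, lmFit and eBayes, genotype as the only term, two-sided) with Benjamini-Hochberg adjustment at 0.05; the code was tested on simulated data. With 3 arrays against 3, which limit the precision, an exact permutation test of 1 probe set cannot go below p = 0.1. Of 34945 probe sets with 1 symbol, 34741 matched RefSeq (GRCm38.p6) and 0 symbols changed; 18193 genes resulted. The bacterial control level is the mean of the brightest of 27 bacterial poly-A controls. Named genes are all members, Tet1 and the 4 of smallest p in each list; genes outside this rule (Spi1, Lyz1, Xist, Kdm5d, Kit, Gfi1, Csf2rb, Csf2rb2, Cdkn1a, Runx1, Ms4a3 and the markers) were chosen for context or after their values were seen. The nearest genes to the granule profile were the 6 of smallest mean absolute difference, among genes with a range over the arrays set against that of the profile. The members and lists were chosen with earlier results of these data known. The sources used here do not say whether replicate numbers pair the samples, and the main fit used no pairing. Figures were drawn with matplotlib 3.10.9.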

Additional observations from a re-analysis of the deposited data

How the results depend on the processing

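No member probe set passed the adjusted threshold under any of the 17 alternatives, where the lowest adjusted p was 0.486, and in the fits other than leave-one-out none of the 12 changed sign. The alternatives were quantile, median-shift and cyclic loess normalization, a filter on dim probe sets, gene values from the brightest or from averaged probe sets, an intensity trend with robust estimation, array weights, the replicate block, each array left out and, chosen after seeing the data, Xist as a covariate and the high-Xist arrays alone. Over all probe sets the adjusted count was 0 except with the intensity trend, at 1, a probe set with no listed gene (1450192_at, at -3.34). With each array left out, values ran from -0.0014 to 0.49 for Mpo, -0.15 to 0.55 for Elane, -0.67 to 0.18 for Prtn3, -0.01 to 1.52 for Cebpa, -0.40 to 1.32 and -0.03 to 0.16 for Csf1r at 1419872_at and 1423593_a_at, and -0.01 to 0.05 for Lyz2, so each took both signs. At an unadjusted p under 0.05 the count of member probe sets was 0, 1 or, without WT replicate 3, 2. Csf3r had its smallest p with quantile normalization (0.47, p 0.0285 in limma) and cyclic loess (0.51, p 0.0207). Deviations from the group means on arrays of the same replicate number had correlations from -0.006 to 0.013 over all probe sets. These values cannot show whether single genes vary together by replicate number. Replicate 3 was the low-Xist array in each genotype, and with the replicate block Prtn3 stayed at -0.23 with an SE of 0.17. With the replicate block 0 members passed adjustment and Csf1r at 1419873_s_at, at 0.63, had an unadjusted limma p of 0.0453. That probe set had smaller unadjusted limma p-values with array weights (0.81, p 0.0157) and without Tet1 KO replicate 2 (0.81, p 0.0195). Its adjusted p-values there were 0.66 and 0.607. List medians moved by more than the spread between replicates as follows, and the cause was not tested: secondary and tertiary granule genes 0.22 on the high-Xist arrays; ligands, receptors and signalling genes 0.04 above the bacterial control level (18 genes), -0.0098 with the mean of probe sets and from -0.01 to 0.22 with each array left out; monocyte and macrophage genes 0.25 with the mean of probe sets and from 0.11 to 0.26 with each array left out.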

Other observations

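Further genes, most of them of myeloid regulation, were read on the arrays described for the members. Csf2rb, the shared beta chain of the receptors for GM-CSF and related cytokines, was read at its brightest probe set. Its other probe set is not reported here. It read 11.34 on Tet1 KO replicate 1 and from 6.34 to 6.83 on the other 5 arrays. That gap of 4.52 was the largest of the 36 genes whose brightest probe set stood alone by at least 2 log2 units on that array. Its close relative Csf2rb2 read 5.70 there, within the range of 4.87 to 6.50 on the other arrays. Cdkn1a, the p21 cell cycle inhibitor gene, had a gap of 3.31 on the same array. The 36 genes were not selected for a myeloid role. Runx1, whose product acts with C/EBP alpha and PU.1, did not stand alone in this way. At its brightest probe set it read 9.71 on Tet1 KO replicate 1, the highest of the 6 arrays, and from 9.41 to 9.52 in WT. Its lowest array was Tet1 KO replicate 2, at 8.96, and its other probe sets are not reported here.

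Gfi1, a repressor that promotes the granulocyte over the monocyte branch, read 9.51 on WT replicate 3 and 9.19 on Tet1 KO replicate 3, the low-Xist arrays, and from 8.24 to 8.53 on the other 4. Prtn3 was low on the arrays on which Gfi1 was high. Ms4a3, a gene of granulocyte-monocyte progenitors, read 6.25, 6.39 and 6.91 in WT and 6.92, 7.19 and 5.94 in Tet1 KO, so that its lowest arrays were Tet1 KO replicate 3 and WT replicate 1, as for Mpo, Elane and Ctsg. These genes were picked after their values were seen, and no explanation was tested.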
